A study of Homo sapiens with 6 samples.

Results

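The genes described here are 10 cell-surface molecules through which a tumour cell meets T cells, natural killer (NK) cells and macrophages, or components of such molecules. They are CD274, PDCD1LG2, CD276, CD47, PVR, NECTIN2, ULBP2, ULBP3, NT5E and B2M. They were chosen by name, with earlier results of these data known, and all 10 were found by Entrez identifier among the 12703 genes of the deposited count table. RNA was sequenced from PC3 cells, an established cell line from a bone metastasis of a human prostate cancer, which had been transduced with lentiviral particles. The 3 Control libraries came from cells given Lenti-ORF negative control particles, and the 3 GCNT1 OE libraries from cells labelled as stably overexpressing GCNT1. GCNT1 is a glycosyltransferase needed for core 2 O-glycans, and the comparison asks how its overexpression alters gene expression in prostate cancer cells. Each library stands for 1 transduced PC3 line per the study's methods, 3 of each kind, all from the same parental cell line and with no immune cells added. The lines were made by lentiviral transduction, and whether those of a group came from separate transductions is not stated, so the p-values measure the spread between these samples.

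GCNT1 itself was counted 9, 13 and 8 times in Control replicates 1 to 3 and 13, 16 and 35 times in GCNT1 OE replicates 1 to 3. At 1.12 and 1.16 CPM (counts scaled to library size), GCNT1 OE replicates 1 and 2 lay barely above Control replicate 2 at 1.04 CPM, so in those libraries the counts do not show a clear excess of GCNT1, while replicate 3 reached 2.48 CPM. The log2 fold change of 0.98 (standard error 0.37, edgeR with Benjamini-Hochberg adjusted p = 0.0362) rests partly on GCNT1 OE replicate 3, without which it was 0.49 and not called, and DESeq2 gave an adjusted p of 0.0821. Apart from these counts, the paper examined GCNT1 in its PC3 overexpression model by real-time PCR, ELISA and immunocytochemistry.

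A tumour cell is seen by lymphocytes through a balance of surface signals. Ligands of the B7 family engage inhibitory receptors such as PD-1 on T cells, nectin family ligands engage both activating and inhibitory receptors on NK and T cells, and stress-induced ligands of the NKG2D receptor mark a cell for killing. MHC class I molecules, which need the B2M light chain to reach the surface, present peptides to T cells and restrain NK cells, CD47 restrains macrophages through SIRPA, and NT5E makes extracellular adenosine, which dampens lymphocytes. These are transcript measurements of whole cultures, so a lower level may mean fewer cells carrying a transcript or less of it per cell, which cannot be told apart.

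Of the 10 genes, 4 were called, meaning an adjusted p under 0.05 and an absolute log2 fold change of at least 0.58 between GCNT1 OE and Control (edgeR quasi-likelihood test, Benjamini-Hochberg adjustment over 12703 genes). PDCD1LG2, ULBP2 and CD274 were upregulated and NT5E was downregulated. That is 40% of the 10 genes, which were not chosen blind to the data, against 19.3% of all genes tested, and by direction 8.28% of all genes were called higher and 11.1% lower. On the adjusted p alone, 8 of the 10 passed, 6 of them higher in GCNT1 OE (PDCD1LG2, ULBP2, CD274, B2M, PVR and CD276) and 2 lower (NT5E and CD47), against 57.6% of all genes. In the same 8 genes the normalised levels of the groups did not overlap, against 62.5% of all genes. Most genes passed these looser criteria, so 8 of 10 says little about the 10 genes. The median log2 fold change of the 10 genes was 0.42 and that of all genes 0.00. For each of the 8 an exact two-sided permutation test over libraries gave p = 0.1, the smallest that 3 against 3 libraries allow.

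**Figure D1:**
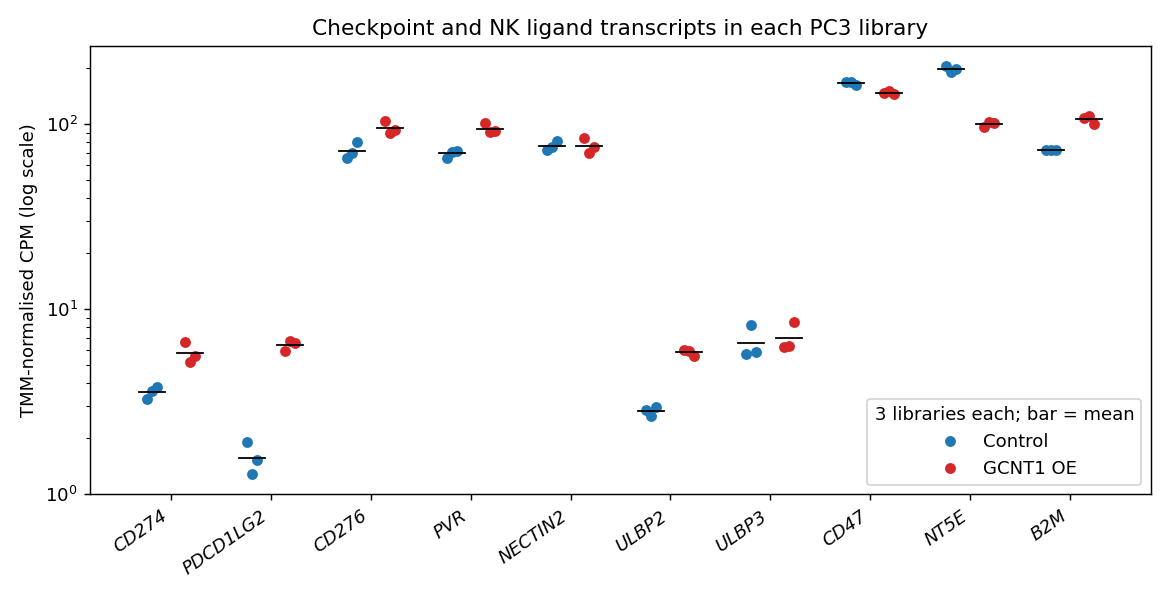
TMM-normalised CPM (log axis) of the 10 genes, with 1 point per library (blue, Control; red, GCNT1 OE) and a bar at the mean of 3 libraries. CD274, PDCD1LG2 and the ULBP genes sit below 10 CPM and the other genes above 60, and the colours overlap only in NECTIN2 and ULBP3.

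The plot of the levels in each library shows that the genes fell into a low and a high range. Totals of 11392213 to 13825704 counts per library put a gene with 3 counts at 0.217 to 0.263 CPM, and even the lowest value among the 10 genes, 16 counts of PDCD1LG2 in Control replicate 2, was 1.29 CPM. Each GCNT1 OE library of a called gene lay on the same side of all Control libraries.

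The immediate upstream sequences of 9 of the 10 genes were found in RefSeq (GRCh38.p14, 250 bases before to 50 after the transcript start), PDCD1LG2 having no entry. They were searched on both strands for 7 motifs. These were an interferon-response pair (GAAA, then any 2 bases, then GAAA), an NF-kB type motif (GGG, then any 2 bases, then TTTCC), an AP-1 type motif (TGA, then any base, then TCA), the E-box CACGTG, the GC box GGGCGG, the CRE motif TGACGTCA and the TATA box TATAAA. Of 35116 promoters of the same length, 3.57% held the interferon-response pair, 1.91% the NF-kB type and 7.71% the AP-1 type motif. The 4 sequences below are shown because they are the ones in which any of these first 3 motifs was found, and the capitals mark the matches.
CD274, chr9:5450292-5450591, plus strand: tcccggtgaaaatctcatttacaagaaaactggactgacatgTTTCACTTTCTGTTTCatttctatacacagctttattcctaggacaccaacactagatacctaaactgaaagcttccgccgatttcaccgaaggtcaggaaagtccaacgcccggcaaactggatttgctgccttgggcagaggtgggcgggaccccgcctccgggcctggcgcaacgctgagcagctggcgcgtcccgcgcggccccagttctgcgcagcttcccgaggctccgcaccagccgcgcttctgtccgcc
B2M, chr15:44711267-44711566, plus strand: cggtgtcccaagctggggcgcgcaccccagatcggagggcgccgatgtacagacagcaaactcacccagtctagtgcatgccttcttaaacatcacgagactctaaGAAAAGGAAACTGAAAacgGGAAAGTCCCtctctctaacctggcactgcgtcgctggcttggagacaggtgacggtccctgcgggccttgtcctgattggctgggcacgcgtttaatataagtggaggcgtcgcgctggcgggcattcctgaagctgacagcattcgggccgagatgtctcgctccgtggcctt
ULBP2, chr6:149941764-149942063, plus strand: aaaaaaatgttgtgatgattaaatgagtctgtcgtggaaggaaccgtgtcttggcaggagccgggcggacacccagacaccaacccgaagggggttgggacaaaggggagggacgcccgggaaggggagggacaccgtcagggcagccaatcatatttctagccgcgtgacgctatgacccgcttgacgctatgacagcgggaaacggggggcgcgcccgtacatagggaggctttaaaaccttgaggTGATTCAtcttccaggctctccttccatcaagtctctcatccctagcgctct
ULBP3, chr6:150069072-150069371, minus strand: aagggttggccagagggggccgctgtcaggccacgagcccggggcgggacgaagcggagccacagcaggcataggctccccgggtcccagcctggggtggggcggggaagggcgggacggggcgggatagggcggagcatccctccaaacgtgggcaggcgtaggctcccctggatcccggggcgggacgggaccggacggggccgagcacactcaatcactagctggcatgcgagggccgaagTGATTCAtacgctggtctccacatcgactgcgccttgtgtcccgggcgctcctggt
CD274 and B2M each held 2 overlapping matches of the interferon-response pair, beginning 208 and 202 bases before the start in CD274 and 144 and 138 bases before it in B2M, and B2M held 1 match of the NF-kB type motif beside them. ULBP2 and ULBP3 shared the same AP-1 type match, tgattca, across their starts, although ULBP2 was called higher and ULBP3 was not called. The promoters of CD276, CD47, NECTIN2, NT5E and PVR held none of the 3. Among the other motifs, the GC box was found upstream of CD274, CD276, CD47, NECTIN2, NT5E, ULBP2 and ULBP3 and in 45% of all promoters, the CRE motif was found in NECTIN2 and in 1.85% of all promoters, and the E-box and TATA box, held by 7.26% and 11.5% of all promoters, were in none of the 9 genes. A match is a string of letters and not a measured binding site.

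PDCD1LG2 and CD274 encode PD-L2 and PD-L1, the ligands of the inhibitory T cell receptor PD-1, and lie next to each other on chromosome 9 in hg38. CD274 spans 5450503 to 5470566 and PDCD1LG2 5510531 to 5571282, both on the plus strand and 40.0 kb apart. PDCD1LG2 was counted 24, 16 and 18 times in Control replicates 1 to 3 and 69, 92 and 92 times in GCNT1 OE replicates 1 to 3. Every GCNT1 OE library was above every Control library, with a gap wider than the spread of either group. The normalised level went from 1.57 ± 0.314 CPM (SD, n = 3) to 6.39 ± 0.384 CPM (SD, n = 3), or 4.06-fold. On the log2 scale the change was 2.02 (standard error 0.18, 95% interval 1.63 to 2.41, edgeR with Benjamini-Hochberg adjusted p = 7.73e-07), the largest of the 10 genes and above that of 99.1% of all genes.

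CD274 was counted 41, 45 and 45 times in Control and 77, 71 and 79 times in GCNT1 OE. The groups were again separate, with normalised levels of 3.26, 3.61 and 3.81 CPM against 6.65, 5.17 and 5.60 CPM. The mean rose from 3.56 ± 0.278 CPM (SD, n = 3) to 5.81 ± 0.764 CPM (SD, n = 3), or 1.62-fold. The log2 fold change of 0.70 (standard error 0.16, edgeR with Benjamini-Hochberg adjusted p = 0.00185) had a 95% interval of 0.36 to 1.03, which reaches below the fold threshold, and a test against that threshold (glmTreat) did not call CD274 (adjusted p = 0.553).

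Because the PD-1 ligands are counted in the same libraries, their ratio needs no scaling. For each CD274 read there were 0.585, 0.356 and 0.400 PDCD1LG2 reads in Control replicates 1 to 3 and 0.896, 1.30 and 1.17 in GCNT1 OE replicates 1 to 3. The ratio was higher in every GCNT1 OE library, by a mean of 1.34 on the log2 scale. This pair and the pairs below were set as ratios after their values were seen, and the ratios are given without a test. PD-L2 reads were the fewer in every Control library and the more numerous in GCNT1 OE replicates 2 and 3. None of the 6 analysed genes closest to the pair, 3 on each side, was called. RCL1 had a log2 fold change of 0.11, JAK2 of -0.30 (edgeR adjusted p = 0.0555), PLGRKT of -0.41 (edgeR adjusted p = 0.0170), RIC1 of -0.07, ERMP1 of -0.31 (edgeR adjusted p = 0.00108) and BRD10 of 0.22 (edgeR adjusted p = 0.0412), and the median of the 50 genes nearest to the pair was -0.13. A noncoding gene, ENSG00000286162, overlaps CD274 and PDCD1LG2 on the other strand. The libraries were stranded but the strand setting of the counting is not given in the sources used here, so reads from this gene, if any, could not be told apart.

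CD276 encodes B7-H3, another member of the B7 family, and lies on chromosome 15 from 73683966 to 73714514 on the plus strand. It was counted 827, 869 and 941 times in Control and 1196, 1223 and 1308 times in GCNT1 OE. Normalised levels were 65.7, 69.8 and 79.6 CPM against 103, 89.0 and 92.7 CPM, so the groups were separate but Control replicate 3 came within 10 CPM of the lowest GCNT1 OE library. The log2 fold change was 0.41 (standard error 0.08, 95% interval 0.24 to 0.57, edgeR with Benjamini-Hochberg adjusted p = 0.000538), or 1.32-fold, which passed the adjusted p and not the fold threshold. The 50 nearest genes on chromosome 15 had a median log2 fold change of 0.31, so CD276 stood 0.09 above its neighbourhood. The analysed genes on one side of it were NPTN, with a log2 fold change of 0.14, and beyond it NEO1, with 3.83.

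**Figure D2:**
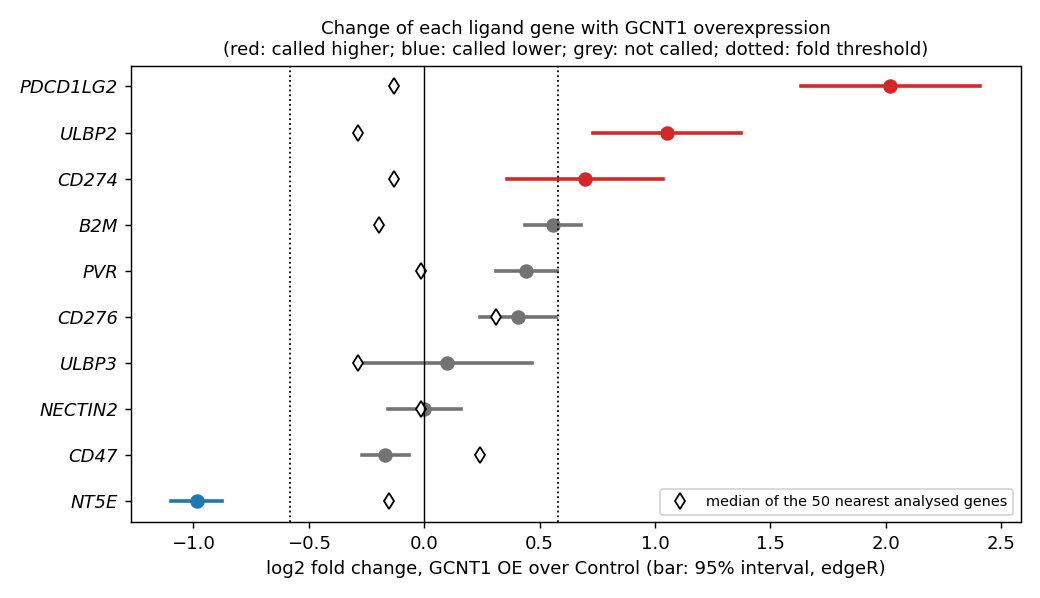
Log2 fold change of each gene in GCNT1 OE over Control (points) with its 95% interval (bars), coloured red where called higher, blue where called lower and grey where not called. Open diamonds are the median log2 fold change of the 50 nearest analysed genes and dotted lines the fold threshold of 0.58. PDCD1LG2 at 2.02 and NT5E at -0.99 lie farthest out, and B2M at 0.56 lies just inside the threshold.

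The other B7 and T cell checkpoint ligands give the context of these genes. Of 20 listed, 11 were measured, 2 were called higher, 1 was called lower and the median log2 fold change was 0.34. Without Control replicate 1, GCNT1 OE replicate 2 or GCNT1 OE replicate 3, 2 were called lower, and with 10 counts in every library none was. TNFSF9 had -0.57 (edgeR adjusted p = 0.00512), short of the fold threshold. VSIR, which encodes the checkpoint ligand VISTA, went from 3.67 ± 0.137 to 8.39 ± 0.856 CPM (log2 fold change 1.19, edgeR adjusted p = 9.33e-06). CEACAM1, a ligand of TIM-3, had a log2 fold change of 1.03 (edgeR adjusted p = 0.00124). CD70, the ligand of the costimulatory receptor CD27, fell from 7.98 ± 1.25 to 0.832 ± 0.209 CPM (log2 fold change -3.23, edgeR adjusted p = 5.67e-08). Of 15 genes known to act on the stability, glycosylation or transport of PD-L1 or PD-L2, all 15 were measured and 1 was called, FKBP5, with a log2 fold change of 0.60 (edgeR adjusted p = 2.17e-05). That call was lost without Control replicate 3. Their median was 0.03. CMTM6, which keeps PD-L1 at the surface, had -0.15, and B3GNT3, a glycosyltransferase linked to PD-L1 glycosylation, had 0.52 (edgeR adjusted p = 0.00171) and was not called.

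PVR (CD155) and NECTIN2 (CD112) are ligands of the activating NK receptor DNAM-1 and of the inhibitory receptor TIGIT, and lie 180.0 kb apart on the plus strand of chromosome 19, PVR from 44643798 to 44666162 and NECTIN2 from 44846175 to 44889223. PVR was counted 830, 883 and 849 times in Control and 1170, 1253 and 1290 times in GCNT1 OE. Its normalised levels were 66.0, 70.9 and 71.8 CPM against 101, 91.2 and 91.4 CPM, and the groups were separated by more than the spread of either. The mean was 69.6 ± 3.16 CPM in Control and 94.6 ± 5.64 CPM in GCNT1 OE (SD, n = 3 each), or 1.36-fold. With a log2 fold change of 0.44 (standard error 0.06, 95% interval 0.31 to 0.57, edgeR with Benjamini-Hochberg adjusted p = 4.27e-05), PVR passed the adjusted p but not the fold threshold. CEACAM19 overlaps it on the same strand and CEACAM16-AS1 on the other strand, and 0.751% of the 75-base stretches of its longest transcript also occur in CEACAM19.

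NECTIN2 was counted 909, 940 and 962 times in Control and 978, 963 and 1057 times in GCNT1 OE. The normalised levels interleaved, at 72.2, 75.5 and 81.4 CPM against 84.5, 70.1 and 74.9 CPM, with GCNT1 OE replicate 1 the highest and replicate 2 the lowest of all 6. The log2 fold change was 0.00 (standard error 0.07, edgeR with Benjamini-Hochberg adjusted p = 0.994), and its 95% interval of -0.16 to 0.16 leaves out a change as large as that of PVR. The PVR to NECTIN2 read ratio was 0.913, 0.939 and 0.883 in Control and 1.20, 1.30 and 1.22 in GCNT1 OE. It was under 1 in every Control library and over 1 in every GCNT1 OE library, a mean difference of 0.44 on the log2 scale. Of NECTIN2, 2.98% of the 75-base stretches also occur in the overlapping antisense gene ENSG00000267282 or the pseudogene NECTIN2P1. The 50 nearest genes of both had a median log2 fold change of -0.01. Of 6 other nectins and nectin-like ligands, 3 were measured and none was called, with 3 passing an adjusted p under 0.05 in edgeR. NECTIN1 had a log2 fold change of -0.50, NECTIN3 of 0.40 and CADM4 of -0.33, and the median was -0.33.

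ULBP2 and ULBP3 are ligands of NKG2D, an activating receptor of NK cells and cytotoxic T cells, and belong to a cluster of related genes on chromosome 6. ULBP2 spans 149942014 to 149949235 on the plus strand and ULBP3 150061053 to 150069121 on the minus strand, 111.8 kb away. ULBP2 was counted 36, 33 and 35 times in Control and 70, 82 and 79 times in GCNT1 OE. The libraries within each group were close together and the groups far apart, at 2.82 ± 0.158 against 5.87 ± 0.240 CPM (SD, n = 3 each), or 2.07-fold. This was a log2 fold change of 1.05 (standard error 0.15, 95% interval 0.73 to 1.37, edgeR with Benjamini-Hochberg adjusted p = 4.70e-05).

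ULBP3 was counted 72, 102 and 69 times in Control and 72, 87 and 120 times in GCNT1 OE. The groups overlapped, with Control replicate 2 at 8.19 CPM and GCNT1 OE replicate 3 at 8.51 CPM above the other 4 libraries, which lay between 5.72 and 6.33 CPM. In ULBP3 the log2 fold change was 0.10 (standard error 0.17, edgeR with Benjamini-Hochberg adjusted p = 0.640) and the exact permutation p was 0.5. The 95% interval, -0.27 to 0.47, does not reach the change of ULBP2 but allows changes of the size seen in PVR or CD276. The ULBP2 to ULBP3 read ratio was 0.5, 0.324 and 0.507 in Control and 0.972, 0.943 and 0.658 in GCNT1 OE, higher in each GCNT1 OE library by a mean of 0.96 on the log2 scale.

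Part of ULBP2 is repeated in related genes, which bears on its counts. Of 1261 stretches of 75 bases in ULBP2, 20.8% also occur in RAET1G or RAET1L, and reads from them cannot be assigned to 1 gene. RAET1G, itself an NKG2D ligand gene, was counted 26, 22 and 20 times in Control and 44, 35 and 41 times in GCNT1 OE, with a log2 fold change of 0.72 (edgeR with Benjamini-Hochberg adjusted p = 0.0114), and was called higher, a call that was lost without GCNT1 OE replicate 1. RAET1L was not analysed here. ULBP1, counted 69, 77 and 83 against 88, 110 and 116 times, had a log2 fold change of 0.36 (edgeR adjusted p = 0.0281) and was not called. These 2 were the measured genes of 6 other NKG2D ligands listed, MICA and MICB among those not analysed here, with a median of 0.54. The 50 nearest genes of the cluster had a median log2 fold change of -0.29, so ULBP2, RAET1G, ULBP1 and ULBP3 were each above their surroundings. In ULBP3, 6.19% of the stretches occur in other genes, most of them unrelated.

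Of 5 genes linked to the shedding or release of NKG2D ligands, all 5 were measured, none was called higher and 1 was called lower, with a median of -0.25. PDIA6, a disulphide isomerase, went from 630.0 ± 6.53 to 367 ± 12.5 CPM (log2 fold change -0.78, edgeR adjusted p = 7.36e-09). The protease ADAM17 had -0.34 (edgeR adjusted p = 0.00206) and MMP14 0.36 (edgeR adjusted p = 7.62e-05), both short of the fold threshold. The 50 nearest genes had a median of -0.50 at PDIA6, -0.50 at ADAM17 and -0.14 at MMP14, so ADAM17 did not lie below its neighbourhood. Ligands of other NK receptors split in direction, with 8 of 12 measured, 2 called higher, 2 called lower and a median of -0.04. ICAM1, the ligand of the integrin LFA-1, rose from 32.8 ± 0.856 to 125 ± 11 CPM (log2 fold change 1.93, edgeR adjusted p = 1.75e-10), and NCR3LG1, which encodes the NKp30 ligand B7-H6, had a log2 fold change of 1.25 (edgeR adjusted p = 1.61e-05). CLEC2B, which encodes the NKp80 ligand AICL, fell from 172, 179 and 178 counts in Control to 5, 4 and 3 in GCNT1 OE (log2 fold change -5.51, edgeR adjusted p = 1.51e-10), and PDGFD, an NKp44 ligand, had -1.68 (edgeR adjusted p = 3.11e-07).

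CD47, the ligand of SIRPA on macrophages, lies on the minus strand of chromosome 3 from 108043091 to 108091862. It was counted 2120, 2097 and 1913 times in Control and 1704, 2071 and 2056 times in GCNT1 OE. The raw counts overlapped, but after scaling for depth they did not, at 168, 168 and 162 CPM against 147, 151 and 146 CPM. In CD47 the log2 fold change was -0.17 (standard error 0.05, 95% interval -0.27 to -0.07, edgeR with Benjamini-Hochberg adjusted p = 0.00783), or 1.12-fold lower. With library size alone in place of TMM factors it was -0.11 (edgeR adjusted p = 0.0607), so the passing of the adjusted p rests on the scaling. The 50 nearest genes had a median of 0.24, which puts CD47 0.41 on the log2 scale under its neighbourhood. Of 8 other genes of phagocytosis signals 7 were measured, none was called higher and 2 were called lower, with a median of -0.15. CD24, the ligand of Siglec-10, went from 14.5 ± 1.15 to 1.77 ± 0.126 CPM (log2 fold change -3.02, edgeR adjusted p = 1.63e-09), and STC1, which retains calreticulin inside the cell, from 44.4 ± 0.740 to 0.932 ± 0.329 CPM (log2 fold change -5.55, edgeR adjusted p = 3.54e-12).

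NT5E encodes CD73, the surface enzyme that turns AMP into adenosine, and lies on the plus strand of chromosome 6 from 85449584 to 85495791. It was counted 2584, 2395 and 2354 times in Control and 1119, 1419 and 1430 times in GCNT1 OE. All 3 GCNT1 OE libraries, at 96.7 to 103 CPM, lay far below the Control libraries at 192 to 205 CPM. The mean fell from 199 ± 6.49 to 100.4 ± 3.40 CPM (SD, n = 3 each), 1.98-fold. Its log2 fold change was -0.99 (standard error 0.05, 95% interval -1.10 to -0.87, edgeR with Benjamini-Hochberg adjusted p = 4.07e-09), lower than that of all but 5.53% of genes. No other gene overlaps NT5E and none of the 75-base stretches of its longest transcript occurs elsewhere among annotated transcripts. Its 50 nearest genes had a median of -0.15, and the gene beside it, TBX18, had a log2 fold change of 3.74 in the opposite direction.

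The other genes of extracellular ATP and adenosine moved less than NT5E. Of 19 listed, 12 were measured, none was called higher and 2 were called lower, with a median of -0.19. PANX1, the channel that releases ATP, went from 91.3 ± 2.81 to 48.5 ± 1.89 CPM (log2 fold change -0.91, edgeR adjusted p = 2.62e-08). DPP4, known as CD26 and a surface anchor of adenosine deaminase, had a log2 fold change of -0.62 (edgeR adjusted p = 7.04e-07). With library size alone, and without Control replicate 1, 1 gene of the list was called lower and not 2. The ectoenzyme ENPP1, which makes AMP from ATP, had -0.48 (edgeR adjusted p = 0.000106), adenosine deaminase ADA -0.32 (edgeR adjusted p = 0.0174) and the adenosine receptor ADORA2B -0.36 (edgeR adjusted p = 0.000518), each passing the adjusted p and not the fold threshold. In the other direction NT5C2 had 0.36 (edgeR adjusted p = 0.000126), adenosine kinase ADK 0.30 (edgeR adjusted p = 0.000124) and the nucleoside transporter SLC29A1 0.26 (edgeR adjusted p = 0.00226), so the list did not move one way.

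B2M, beta-2 microglobulin, is the light chain shared by MHC class I molecules, MR1, the CD1 proteins and the neonatal Fc receptor, and lies on the plus strand of chromosome 15 from 44711358 to 44718851. It was counted 907, 902 and 859 times in Control and 1256, 1522 and 1416 times in GCNT1 OE. The Control libraries were nearly equal at 72.1, 72.4 and 72.7 CPM, and the GCNT1 OE libraries lay well above them at 109, 111 and 100.4 CPM. The mean went from 72.4 ± 0.298 to 107 ± 5.49 CPM (SD, n = 3 each), or 1.47-fold. With a log2 fold change of 0.56 (standard error 0.06, 95% interval 0.44 to 0.68, edgeR with Benjamini-Hochberg adjusted p = 2.37e-06), B2M was just short of the fold threshold, while CD274 at 0.70 was the called gene nearest to it from above. Without GCNT1 OE replicate 3 it was 0.60 and with library size alone 0.62, and B2M was then called. The 50 nearest genes had a median of -0.20, and B2M stood 0.75 above them.

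The level of B2M needs a caution that the other genes do not. Of its 2751 exon stretches of 75 bases, the read length, 91.2% also occur on alternative sequences of hg38, against 4.63% in ULBP3, 0.0229% in CD276 and 0 in the other 7 genes. Whether the authors' index held these sequences, and how reads with more than 1 match were counted, is not given in the sources used here, so the B2M counts may hold only part of its reads. Its part in the fold change was not tested. The same holds for the heavy chain gene HLA-B on chromosome 6, where 60.7% of the stretches occur on alternative sequences.

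The measured partners of B2M did not follow it as a group. Of 10 heavy chains and other partners 4 were measured, 1 was called higher and 1 lower. MR1, which presents microbial vitamin metabolites to T cells, went from 5.13 ± 0.581 to 12.1 ± 1.05 CPM (log2 fold change 1.23, edgeR adjusted p = 2.73e-06). HLA-B was counted 107, 100 and 99 times in Control and 66, 63 and 61 times in GCNT1 OE (log2 fold change -0.78, edgeR adjusted p = 0.000256). FCGRT, the neonatal Fc receptor, had 0.00 (edgeR adjusted p = 0.986). Of 20 genes of peptide loading and class I transcription 15 were measured, 3 were called higher and none lower, with a median of 0.08. Those not measured were TAP1, TAP2, TAPBP, PSMB8 and PSMB9, where 99.2% to 100% of the stretches occur on alternative sequences. The 3 called higher were NLRC5, the class I transactivator, with a log2 fold change of 1.46 (edgeR adjusted p = 2.86e-05), IRF1, an interferon-induced transcription factor, with 0.92 (edgeR adjusted p = 8.74e-06), and TAPBPL, a peptide editor, with 1.28 (edgeR adjusted p = 0.00238). TAPBPL rested on only 9, 6 and 6 counts in Control and 17, 20 and 18 in GCNT1 OE, and was left out with 10 counts in every library. Of the uncalled genes, the chaperone CANX had -0.42 and CALR -0.14, while the proteasome subunit PSMB10 had 0.29 (edgeR adjusted p = 0.0198) and the peptidase ERAP2 0.22 (edgeR adjusted p = 0.0159).

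**Figure D3:**
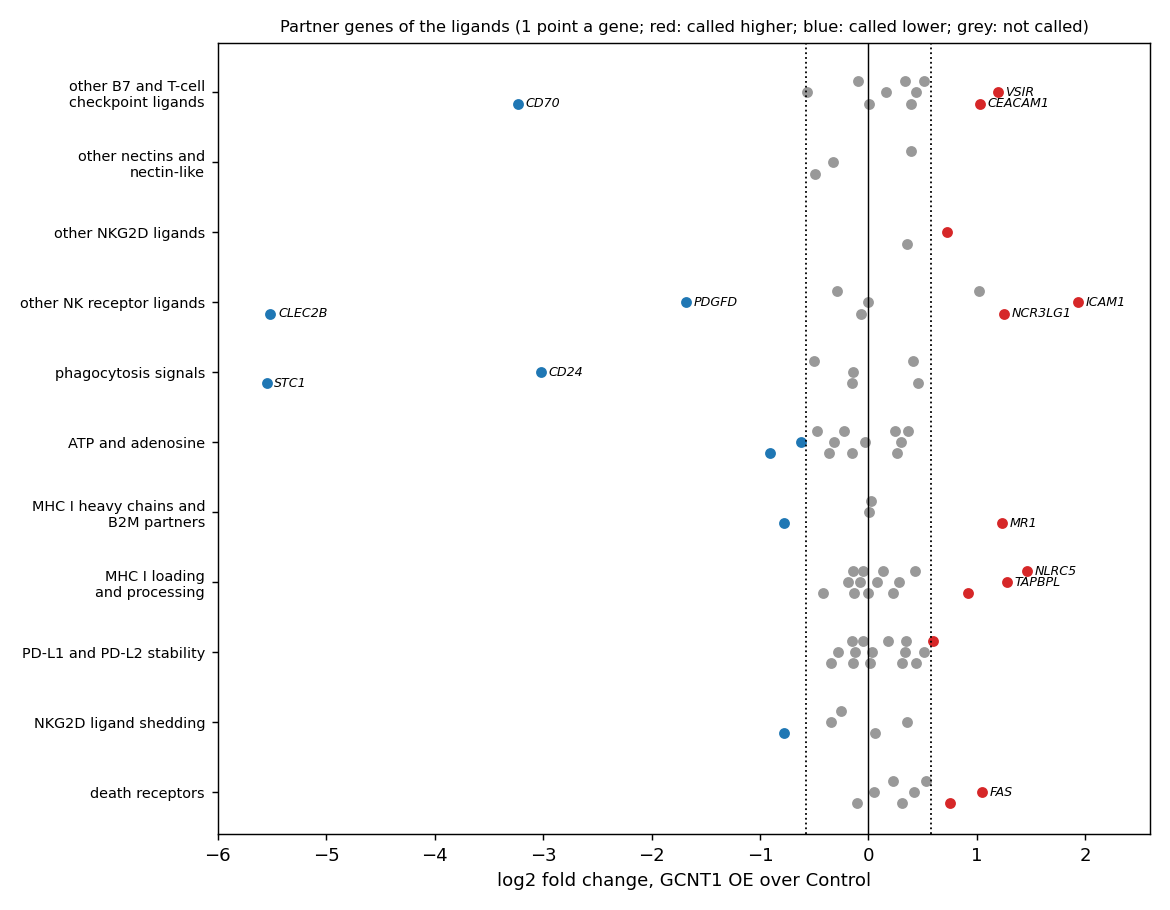
Log2 fold change in GCNT1 OE over Control of the measured genes of 11 lists around the ligands, 1 point per gene, red where called higher, blue where called lower and grey where not called, with dotted lines at the fold threshold. Names are given for called genes with an absolute log2 fold change of at least 1. STC1 at -5.55 and CLEC2B at -5.51 lie at the left edge and ICAM1 at 1.93 at the right.

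Across all lists, marker lists included, 103 of 177 distinct genes were measured, 13 (12.6%) were called higher and 16 (15.5%) lower, against 8.28% and 11.1% of all genes. The lists were chosen with earlier results known, and most hold too few genes for a share of their own to be read. In the plot of the partner genes the greater part of the points of most lists lay inside the fold threshold.

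Levels of different genes were compared per kilobase of exon, as TMM-normalised CPM divided by the length of all annotated exons. In Control the order from the highest was NT5E (43.9 ± 1.43 CPM per kb), B2M (23.2 ± 0.0954), NECTIN2 (20.4 ± 1.24), CD47 (20.2 ± 0.464), CD276 (13.1 ± 1.30), PVR (6.67 ± 0.303), ULBP3 (2.12 ± 0.448), ULBP2 (2.12 ± 0.119), CD274 (0.866 ± 0.0677) and PDCD1LG2 (0.646 ± 0.129), each SD over 3 libraries. NECTIN2 and CD47 overlapped, as did ULBP3 and ULBP2, and the other neighbours in this order did not. In GCNT1 OE the order was B2M (34.1 ± 1.76 CPM per kb), NT5E (22.2 ± 0.749), NECTIN2 (20.4 ± 1.96), CD47 (18 ± 0.314), CD276 (17.3 ± 1.36), PVR (9.07 ± 0.541), ULBP2 (4.40 ± 0.180), PDCD1LG2 (2.63 ± 0.158), ULBP3 (2.26 ± 0.414) and CD274 (1.41 ± 0.186). Here NT5E overlapped NECTIN2, CD47 overlapped CD276, and PDCD1LG2 overlapped ULBP3.

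**Figure D4:**
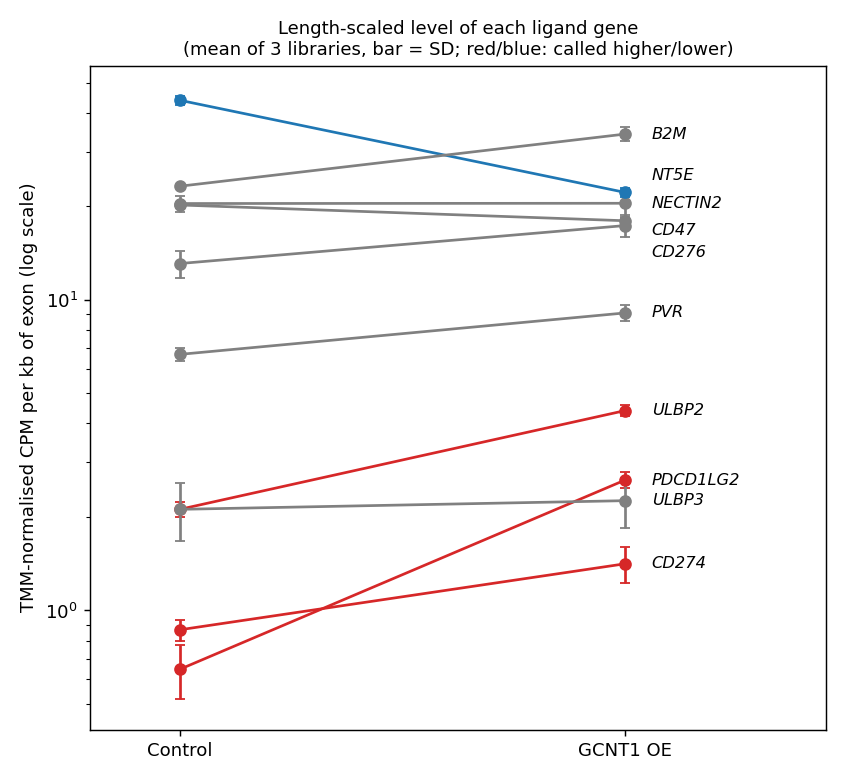
Length-scaled level of each gene (TMM-normalised CPM per kb of exon, log axis) in Control and GCNT1 OE, as the mean of 3 libraries with bars of 1 SD, red where called higher, blue where called lower and grey where not called. NT5E goes from the top at 43.9 to 22.2 and PDCD1LG2 crosses CD274, going from 0.646 to 2.63.

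In the plot of length-scaled levels PDCD1LG2 was the lowest of the 10 genes in Control and above CD274 in GCNT1 OE, and NT5E left the first place to B2M, whose level is the uncertain one. Dividing by the longest transcript in place of all exons kept the Control order, but in GCNT1 OE it put CD276 (28.8 CPM per kb) and NECTIN2 (28.4) above NT5E (25.6). The levels of PVR and of the genes below it kept their places. PC3 cultures held CD274, PDCD1LG2, ULBP2 and ULBP3 transcripts at lower length-scaled levels than PVR, CD276, CD47, NECTIN2 and NT5E in both groups. Other NKG2D ligands were not compared in this way.

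The cells were checked against marker lists. All 7 PC3 epithelial markers were measured, with summed levels of 2404 to 2531 CPM in Control and 2457 to 2656 CPM in GCNT1 OE, of which KRT19 (log2 fold change -0.68) and CDH1 (-1.71) were called lower, the median being -0.14. VIM, a mesenchymal intermediate filament gene, was the most abundant of the 7 and went from 1127 to 1390 CPM (log2 fold change 0.30, edgeR adjusted p = 8.06e-05). Without VIM and CD44, a split made after the values were seen, the sum of the other 5 was 822 to 869 CPM in Control and 626 to 710 CPM in GCNT1 OE. Of 15 immune cell markers 1 was measured, CD68, at 83.4 to 94.4 CPM in Control and 80.0 to 89.5 CPM in GCNT1 OE (log2 fold change -0.09), and PTPRC, CD3E and the other 12 were not analysed here. Of 12 receptors of the ligands on immune cells 1 was measured, SIRPA (log2 fold change -0.15). Of 11 fibroblast and endothelial markers 4 were measured, COL3A1 (-1.94), KDR (-1.53) and COL1A1 (-0.77) called lower and PECAM1 (1.31) higher, with a median of -1.15 and summed levels of 280 to 344 CPM in Control and 90.7 to 110 CPM in GCNT1 OE. DCN, PDGFRB and VWF were among the 7 not analysed here. Of 5 androgen-responsive markers 2 were measured, and TMPRSS2 (-1.26) was called lower. The fibroblast and endothelial sum, the sum of these 5 epithelial markers, VIM and TMPRSS2 moved with the groups, and their part in the results of the ligand genes was not tested.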

How the data were processed

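RNA from 6 transduced PC3 lines was prepared with a stranded mRNA kit and sequenced by the authors as single reads of 75 bases. Per the paper's methods and the submitters' processing notes, the authors used FastQC, Cutadapt, HISAT2 with hg38, featureCounts and limma, and deposited raw read counts per gene without pooling. The annotation, the strand setting and the handling of reads with several matches are not given in the sources used here. No gene had a third-highest CPM under 1.01, and genes expressed below that were not analysed here. A gene not analysed here need not be lowly expressed. Of 14 listed genes in the MHC region of chromosome 6, 11 were missing from the count table. In these, 84.5% to 100% of the 75-base exon stretches also occur on alternative sequences of hg38, against 60.7% to 98.1% in the 3 present. Whether this bears on their absence was not tested.

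The test was edgeR's quasi-likelihood test (edgeR 4.0.16, R 4.3.3) with TMM factors, after filterByExpr, which kept all 12703 genes, and Benjamini-Hochberg adjustment over all genes. A gene was called at an adjusted p under 0.05 and an absolute log2 fold change of at least 0.58, the thresholds used in the study. Alternatives used limma 3.58.1 (voom), DESeq2 1.42.0 and those listed in the closing section. Permutation tests were exact and two-sided. Positions and exons are those of GENCODE on hg38, promoters those of RefSeq, read in Python 3.11.15. The tests were checked on simulated counts. Libraries of a group differed by more than sampling noise (chi-square per degree of freedom 1.65 to 5.57) and each was 1 sample. The counting floor of 3 counts covers counting error only. The genes and lists were chosen with earlier results of these data known. Named were all 10 genes, the called genes of each list (the 6 largest where more were called), the measured MHC class I heavy chains, GCNT1 and paralogues that could share reads, and part of what this rule gives is not reported here. Neighbouring genes and uncalled list genes were named after their values were seen, as were the gene pairs set as ratios.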

Additional observations from a re-analysis of the deposited data

How the results depend on the processing

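The alternatives were limma-voom, DESeq2, RLE factors, library size alone, no filter, 0.5 CPM in 3 libraries, at least 10 counts in each library, glmTreat, the replicate block and the omission of each library. Values relative to the 50 nearest genes had no test. PDCD1LG2, ULBP2 and NT5E kept their direction and their side of the adjusted p threshold in all 15 fitted alternatives, of which no filter and 0.5 CPM in 3 libraries removed no gene and so repeated the reported fit, with log2 fold changes of 1.89 to 2.19, 1.01 to 1.11 and -1.01 to -0.93. The 10 genes held 4 calls in most alternatives, 5 with library size alone and without GCNT1 OE replicate 3, B2M being the fifth each time, and 3 under glmTreat. glmTreat tests against the fold threshold and so is stricter by construction. It called 1392 of all genes in place of 2457 and 19 listed genes in place of 29, and did not call CD274 (0.70), B2M (0.56), PVR (0.44), CD276 (0.41), CD47 (-0.17) or GCNT1 (0.98). With library size alone CD47 was -0.11 and no longer passed, and with DESeq2 GCNT1 was 0.98 and no longer passed; the cause was not tested. Relative to the 50 nearest genes the log2 fold change was 0.092 in CD276, -0.41 in CD47, 1.34 in ULBP2, 0.39 in ULBP3, -0.83 in NT5E and 0.75 in B2M.

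NECTIN2, at 0.00 with TMM factors in edgeR, changed sign with limma-voom (-0.0027), RLE factors (-2.43e-05), 10 counts in every library (-7.64e-05) and the replicate block (-0.000507), and leaving out single libraries gave -0.074 to 0.066. For ULBP3 this range was -0.069 to 0.29 and for GCNT1 0.49 to 1.21, GCNT1 losing its call without Control replicate 1, Control replicate 3 or GCNT1 OE replicate 3. GCNT1 could not be fitted with 10 counts in every library. With the replicate block 2423 genes and 4 of the 10 were called. The deviations of same-numbered libraries correlated at -0.273, -0.0024 and -0.109, and the numbers were not taken to pair the samples. CD274, PDCD1LG2 and ULBP2 rest on 16 to 92 counts per library.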

Other observations

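Death receptors, through which cytotoxic lymphocytes can kill a target cell, were measured for 8 of 10 listed genes, of which 2 were called higher and none lower, with a median log2 fold change of 0.37. FAS, the receptor of FAS ligand, was counted 57, 63 and 49 times in Control and 101, 137 and 136 times in GCNT1 OE, and every GCNT1 OE library was above every Control library. Its log2 fold change was 1.05 (edgeR with Benjamini-Hochberg adjusted p = 1.45e-05). TNFRSF10A, a TRAIL receptor, went from 14 ± 1.59 to 23.5 ± 0.974 CPM (SD, n = 3 each) and had a log2 fold change of 0.76 (edgeR adjusted p = 1.46e-05). Of the other TRAIL receptors measured, TNFRSF10C had 0.22 (edgeR adjusted p = 0.536) and did not pass. TNFRSF10B had 0.31, the initiator caspase CASP8 0.53 and its inhibitor CFLAR 0.42, each passing the adjusted p and not the fold threshold.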
